A study of Saccharomyces cerevisiae with 10 samples.

Results

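The genes described here encode the catalases, the superoxide dismutases, cytochrome c peroxidase and the enzymes that make and use glutathione in budding yeast. They were taken by gene identity, but the choice was made with earlier results of these data known. They number 10 of the 6608 features counted in rich medium: CTT1, CTA1, SOD1, SOD2, CCP1, GSH1, GSH2, GLR1, GPX1 and GPX2. Cells of strain 74D694 either carried [PSI+], the self-propagating aggregated form of the translation termination factor Sup35, or lacked it ([psi-]). In YPD, a rich medium, each strain had 2 libraries of ribosome footprints (the mRNA stretches shielded by translating ribosomes) and 1 library of mRNA. In a synthetic medium (YNB, without uracil, 2% glucose), [PSI+] cells that overexpressed the C-terminal part of Sup35 (SUP35-Cter) were set against [PSI+] cells without it, with 2 footprint libraries each. Cultures were kept at 30 °C, were harvested between OD600 values of 0.6 and 0.8, and received cycloheximide, an inhibitor of elongating ribosomes. The labels give no further genotype, no plasmid or promoter for SUP35-Cter, and do not say whether the [psi-] cells were a cured derivative or how many clones were used.

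Superoxide dismutases turn superoxide into hydrogen peroxide, which catalases and peroxidases then remove. Glutathione, a small thiol peptide, is made by the successive action of Gsh1 and Gsh2. Once oxidized, it is brought back to its reduced form by the reductase Glr1, at the cost of NADPH. In yeast, CTT1 is a textbook target of the general stress regulators Msn2 and Msn4. GSH1, GLR1 and GPX2 are targets of Yap1, the transcription factor of the peroxide response.

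Footprint libraries ranged from 2497170 to 3579039 reads on genes. In mRNA the [PSI+] library, at 5494957 reads, was deeper than the [psi-] library, at 2480012. CPM below are counts scaled to a library total of 1e6 reads, and 3 reads, the most that a count of 0 allows, correspond to 0.838 to 1.21 CPM across these libraries except for [PSI+] mRNA, where they correspond to 0.546 CPM. Footprint changes and their p-values come from edgeR's quasi-likelihood test over 5135 genes, adjusted by Benjamini and Hochberg with a threshold of 0.05. They measure only the spread between these libraries. Intervals on single libraries cover counting error only. In whole cultures, fewer cells using a gene and less use per cell cannot be told apart.

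Footprints of 6 of the 8 genes that could be tested fell in [PSI+], and 0 rose. Across all genes tested, 34.6% passed, with 18.9% that fell and 15.7% that rose. Because the genes were chosen with earlier results of these data known, their count is described and not tested against these shares. The median footprint change of the 8 genes was -1.35 on the log2 scale, against 0.02 over all genes tested. The cytosolic catalase CTT1, the glutathione peroxidase GPX2 and the first enzyme of glutathione synthesis, GSH1, had the largest falls. The peroxisomal catalase CTA1, the reductase GLR1 and the second synthesis enzyme, GSH2, also fell, while SOD1 and GPX1 did not pass the test. The calls for CTA1, GLR1 and GSH2 needed both [psi-] libraries. SOD2 and CCP1 are listed at 0 footprints in every library.

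**Figure D1:**
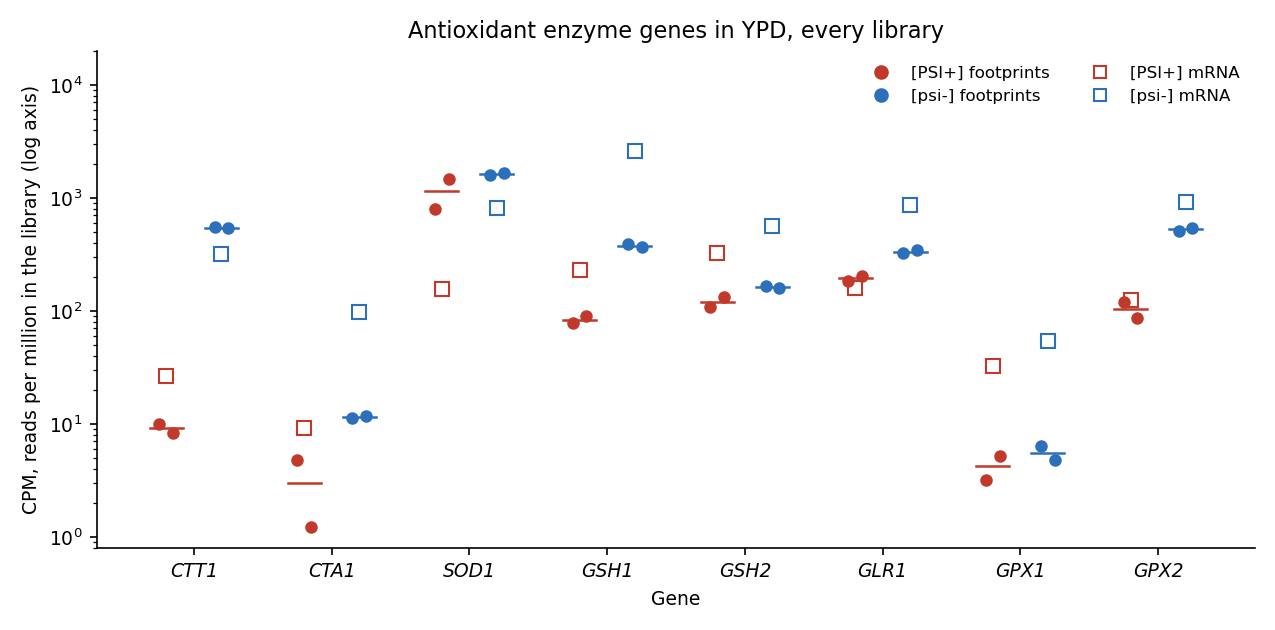
CPM (log axis) of the 8 genes with reads, in every YPD library, with [PSI+] (red) left of [psi-] (blue). Filled circles are footprint libraries with their mean as a bar, and open squares are the single mRNA libraries. CTT1 stands near 9 CPM in both [PSI+] footprint libraries and near 545 CPM in both [psi-] ones.

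The catalases break hydrogen peroxide down to water and oxygen. Positions here and below are those of the coding span in R64 (sacCer3), the build of the YNB mapping. CTT1 (YGR088W, chromosome VII, 654634 to 656322 in R64) encodes the cytosolic catalase T, a classical stress-induced protein. It had 25 and 27 footprint reads in [PSI+], which are 10.01 and 8.29 CPM, against 1895 and 1940 reads in [psi-], which are 547 and 542 CPM. The strains were far apart and the libraries of each strain lay close together, with means of 9.15 ± 1.22 CPM in [PSI+] and 545 ± 3.83 CPM in [psi-] (SD, n = 2 each). The fitted log2 change was -5.89 ± 0.17 (SE; edgeR adjusted p = 5.0e-05), a 59.5-fold fall. It stayed between -6.07 and -5.69 and past the threshold under all 11 alternative settings.

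CTT1 mRNA was lower too, by a smaller factor. The [PSI+] mRNA library held 145 reads (26.4 CPM) and the [psi-] one 788 reads (318 CPM), a ratio 12-fold lower in [PSI+] with a 95% counting interval of 10.1 to 14.5. With 1 mRNA library per strain this ratio has no replicate check. Over all genes the median mRNA log2 ratio was -0.42, and relative to that median the CTT1 ratio of -3.59 becomes -3.17. Footprint CPM per mRNA CPM was 0.379 and 0.314 in the [PSI+] libraries and 1.72 and 1.71 in the [psi-] libraries, so footprints exceeded mRNA on this scale in [psi-] and stood under it in [PSI+].

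CTA1 (YDR256C, chromosome IV, 968133 to 969680 in R64) encodes catalase A of peroxisomes and mitochondria, known for its role beside fatty acid oxidation. It was read thinly, with 12 and 4 footprint reads in [PSI+] (4.81 and 1.23 CPM) and 39 and 42 in [psi-] (11.3 and 11.7 CPM). The strains did not overlap, but the [PSI+] libraries differed from each other by more than the [psi-] ones did. The log2 change was -1.83 ± 0.47 (SE; edgeR adjusted p = 0.0314), or 3.55-fold lower in [PSI+]. Every deposited count carries an added 1, and with it subtracted the log2 change was -2.09. CTA1 passed the filter on low counts through the [psi-] libraries, which favours a call as lower in [PSI+], so it supports no count of falls. Without it 5 of 7 tested genes fell. The call was lost without [psi-] replicate 1 (-1.84, edgeR adjusted p = 0.1003) and without [psi-] replicate 2 (-1.78, edgeR adjusted p = 0.116), and the size moved to -2.79 without [PSI+] replicate 1 and to -1.11 without [PSI+] replicate 2. CTA1 mRNA stood at 51 reads (9.28 CPM) in [PSI+] and 244 reads (98.4 CPM) in [psi-], 10.6-fold lower in [PSI+] (95% counting interval 7.81 to 14.6). The counting intervals of the mRNA ratios of CTT1 and CTA1 overlapped, and the difference between their footprint changes was not tested.

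The superoxide dismutases act upstream of the catalases. SOD1 (YJR104C, chromosome X, 622550 to 623014 in R64) encodes the copper and zinc enzyme of the cytosol. It had 2003 and 4800 footprint reads in [PSI+], or 802 and 1473 CPM, and 5530 and 5912 in [psi-], or 1598 and 1652 CPM. Both [PSI+] values lay under both [psi-] values, but they were far from each other, with means of 1138 ± 475 CPM in [PSI+] and 1625 ± 38.3 CPM in [psi-] (SD, n = 2 each). The log2 change of -0.62 ± 0.27 (SE) did not pass the test (edgeR adjusted p = 0.125). It passed with DESeq2 (-0.79, adjusted p = 0.0188), and in edgeR without [PSI+] replicate 1 (-0.28, adjusted p = 1.6e-11) or without [PSI+] replicate 2 (-1.06, adjusted p = 1.1e-97), where the lone [PSI+] library is assumed to vary as little as the [psi-] pair. SOD1 mRNA was 861 reads (157 CPM) in [PSI+] and 2030 reads (819 CPM) in [psi-], 5.22-fold lower in [PSI+] with a counting interval of 4.82 to 5.66. Its footprints per mRNA were 5.12 and 9.40 in [PSI+], against 1.95 and 2.02 in [psi-].

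SOD2 (YHR008C, chromosome VIII, 122889 to 123590 in R64) encodes the manganese enzyme of the mitochondrial matrix, and CCP1 (YKR066C, chromosome XI, 566113 to 567198 in R64) the cytochrome c peroxidase of the mitochondrial intermembrane space. SOD2 is listed at 0 in the footprint and mRNA libraries of both strains. CCP1 is listed at 0 footprints in both strains, with 4 mRNA reads in [PSI+] and 3 in [psi-]. A listed 0 is not a measured absence here. Of 5255 named protein-coding genes in the count table, 157 are listed at 0 in every library, among them HYP2, which encodes the translation factor eIF5A that every yeast cell uses, and 120 of those 157 are also absent from the YNB table. No level or change is therefore given for SOD2 and CCP1 in YPD.

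Glutathione synthesis starts with GSH1 (YJL101C, chromosome X, 234320 to 236356 in R64), which encodes gamma-glutamylcysteine synthetase, the rate-limiting enzyme. GSH1 had 194 and 291 footprint reads in [PSI+], or 77.7 and 89.3 CPM, against 1341 and 1303 in [psi-], or 387 and 364 CPM. The strains were clearly separated, with means of 83.5 ± 8.23 CPM in [PSI+] and 376 ± 16.5 CPM in [psi-] (SD, n = 2 each). The log2 change was -2.26 ± 0.12 (SE; edgeR adjusted p = 2.79e-04), a 4.78-fold fall that held under all 11 alternatives. GSH1 mRNA was 1251 reads (228 CPM) in [PSI+] and 6493 reads (2618 CPM) in [psi-], 11.5-fold lower in [PSI+] (95% counting interval 10.8 to 12.2). Unlike CTT1, GSH1 fell less in footprints than its mRNA ratio, and its footprints per mRNA were 0.341 and 0.392 in [PSI+], against 0.148 and 0.139 in [psi-].

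GSH2 (YOL049W, chromosome XV, 238619 to 240094 in R64) encodes glutathione synthetase, which adds glycine in the second step. It had 270 and 435 footprint reads in [PSI+], or 108 and 134 CPM, and 575 and 566 in [psi-], or 166 and 158 CPM. The strains did not overlap, and the gap was small beside that of GSH1. The log2 change was -0.52 ± 0.13 (SE; edgeR adjusted p = 0.0304), a 1.43-fold fall. It lost the call with upper-quartile scaling (-0.37, edgeR adjusted p = 0.0655), without [psi-] replicate 1 (-0.49, edgeR adjusted p = 0.299) and without [psi-] replicate 2 (-0.55, edgeR adjusted p = 0.245). GSH2 mRNA was 1799 reads (327 CPM) in [PSI+] and 1400 reads (565 CPM) in [psi-], 1.72-fold lower in [PSI+] (95% counting interval 1.61 to 1.85) and 0.37 below the all-gene median on the log2 scale.

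Glutathione reductase, GLR1 (YPL091W, chromosome XVI, 375502 to 376953 in R64), restores oxidized glutathione with NADPH. It had 458 and 665 footprint reads in [PSI+], or 183 and 204 CPM, against 1118 and 1230 in [psi-], or 323 and 344 CPM. Here too the strains did not overlap, and means were 194 ± 14.7 CPM in [PSI+] and 333 ± 14.6 CPM in [psi-] (SD, n = 2 each). The log2 change was -0.88 ± 0.11 (SE; edgeR adjusted p = 0.00449), a 1.84-fold fall. The call was lost without [psi-] replicate 1 (-0.93, edgeR adjusted p = 0.0666) and without [psi-] replicate 2 (-0.83, edgeR adjusted p = 0.0953). GLR1 mRNA was 883 reads (161 CPM) in [PSI+] and 2157 reads (870 CPM) in [psi-], 5.41-fold lower in [PSI+] (95% counting interval 5.003 to 5.86). Footprints per mRNA were 1.14 and 1.27 in [PSI+], against 0.371 and 0.395 in [psi-].

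Of the glutathione peroxidase genes, GPX2 fell in footprints and GPX1 did not pass the test. GPX2 (YBR244W, chromosome II, 707528 to 708016 in R64) encodes a phospholipid hydroperoxide peroxidase. It had 298 and 282 footprint reads in [PSI+], or 119 and 86.6 CPM, against 1764 and 1950 in [psi-], or 510 and 545 CPM. The strains were far apart, with means of 103 ± 23.2 CPM in [PSI+] and 527 ± 24.9 CPM in [psi-] (SD, n = 2 each). The log2 change was -2.44 ± 0.20 (SE; edgeR adjusted p = 0.00112), a 5.44-fold fall that held under all 11 alternatives. GPX2 mRNA was 691 reads (126 CPM) in [PSI+] and 2275 reads (917 CPM) in [psi-], 7.29-fold lower in [PSI+] (95% counting interval 6.70 to 7.95).

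GPX1 (YKL026C, chromosome XI, 389380 to 389883 in R64) encodes a related peroxidase known to be induced by starvation. It had only 8 and 17 footprint reads in [PSI+], or 3.20 and 5.22 CPM, and 22 and 17 in [psi-], or 6.36 and 4.75 CPM. The strains overlapped, and the log2 change of -0.32 ± 0.33 (SE) did not pass the test (edgeR adjusted p = 0.483). At this depth a change of the size seen for GSH2 was not detectable. GPX1 mRNA was 178 reads (32.4 CPM) in [PSI+] and 133 reads (53.6 CPM) in [psi-], 1.66-fold lower in [PSI+] (95% counting interval 1.31 to 2.08). The difference between the GPX1 and GPX2 changes was not tested.

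**Figure D2:**
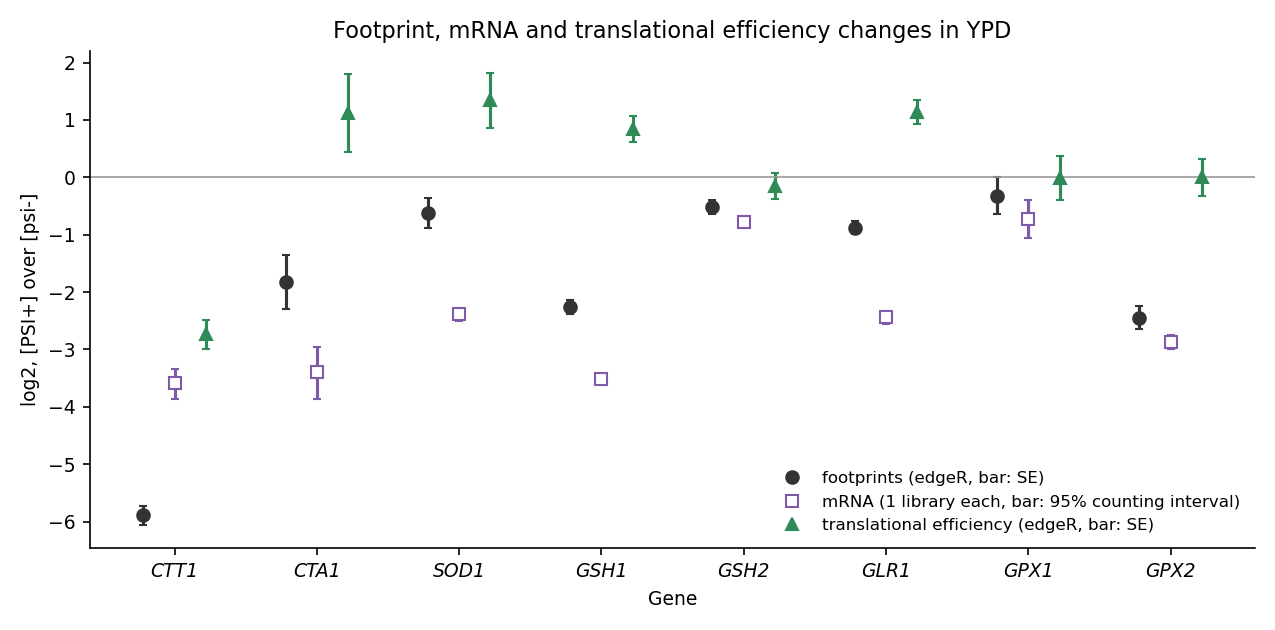
Log2 values, [PSI+] over [psi-], of footprints (circles), mRNA (open squares) and translational efficiency (triangles) for the 8 genes with reads in YPD. Bars are SE for footprints and translational efficiency and the 95% counting interval for mRNA, which has 1 library per strain. In translational efficiency CTT1 alone passed the test as lower, at -2.74, while GLR1 and GSH1 passed as higher, at 1.13 and 0.84.

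The mRNA of 6 of these 8 genes was lower in [PSI+] by 2-fold or more, against 32.0% of the 5213 genes with 20 or more reads over both mRNA libraries. Their median mRNA log2 ratio was -2.65, against -0.42 over all genes. The exceptions, GSH2 and GPX1, had log2 ratios of -0.79 and -0.73. Footprints and mRNA were thus lower together for CTT1, CTA1, GSH1, GLR1 and GPX2, and with SOD1 the mRNA was lower while its footprints did not pass the test.

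Translational efficiency, the footprint level relative to the mRNA level, was tested with an interaction term (footprint or mRNA library by strain) in an edgeR fit to the 6 YPD libraries. Because each strain had a single mRNA library, the spread in this model comes from the footprint libraries alone. Of the 8 genes, 1 fell and 2 rose in translational efficiency, against 20.5% that fell and 17.9% that rose (38.4% in all) among the 5437 genes tested, so these counts are near the background. CTT1 fell, with a log2 change of -2.74 ± 0.25 (SE; edgeR adjusted p = 0.00326), or 6.67-fold. This call held under all 9 alternatives, with values between -2.93 and -2.47.

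GLR1 and GSH1 rose in translational efficiency. Their mRNA was lower by more than their footprints, with a wider gap than between the all-gene medians (-0.42 for mRNA and 0.02 for footprints). GLR1 had a log2 change of 1.13 ± 0.21 (SE; edgeR adjusted p = 0.0119), a 2.20-fold rise, and GSH1 one of 0.84 ± 0.22 (SE; edgeR adjusted p = 0.0312), a 1.79-fold rise. Neither call held without a [psi-] library. For GLR1 the value was 1.09 (edgeR adjusted p = 0.126) without [psi-] replicate 1 and 1.18 (edgeR adjusted p = 0.102) without [psi-] replicate 2, and for GSH1 it was 0.89 (edgeR adjusted p = 0.228) without [psi-] replicate 1 and 0.80 (edgeR adjusted p = 0.275) without [psi-] replicate 2. GSH1 also lost it with no filter on low counts (0.66, edgeR adjusted p = 0.0718).

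The other genes did not pass the test of translational efficiency. SOD1 had the largest value of the 8, 1.34 ± 0.47 (SE; edgeR adjusted p = 0.0717), and passed with upper-quartile scaling (1.603, edgeR adjusted p = 0.0365), without [PSI+] replicate 1 (1.66, edgeR adjusted p = 5.1e-09) and without [PSI+] replicate 2 (0.87, edgeR adjusted p = 1.5e-06). CTA1 stood at 1.12 ± 0.68 (edgeR adjusted p = 0.234), and passed without [PSI+] replicate 2 (1.82, edgeR adjusted p = 0.00749). GSH2 stood at -0.15 ± 0.22 (edgeR adjusted p = 0.613) and GPX1 at -0.01 ± 0.38 (edgeR adjusted p = 0.993). GPX2 stood at -0.002 ± 0.32 (edgeR adjusted p = 0.996), with footprints per mRNA of 0.949 and 0.688 in [PSI+] and 0.556 and 0.594 in [psi-]. GSH2 passed without [PSI+] replicate 2 (-0.28, edgeR adjusted p = 0.0419) and GPX2 without [PSI+] replicate 1 (-0.31, edgeR adjusted p = 0.0378), and GSH2, GPX1 and GPX2 each changed sign under another scaling.

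**Figure D3:**
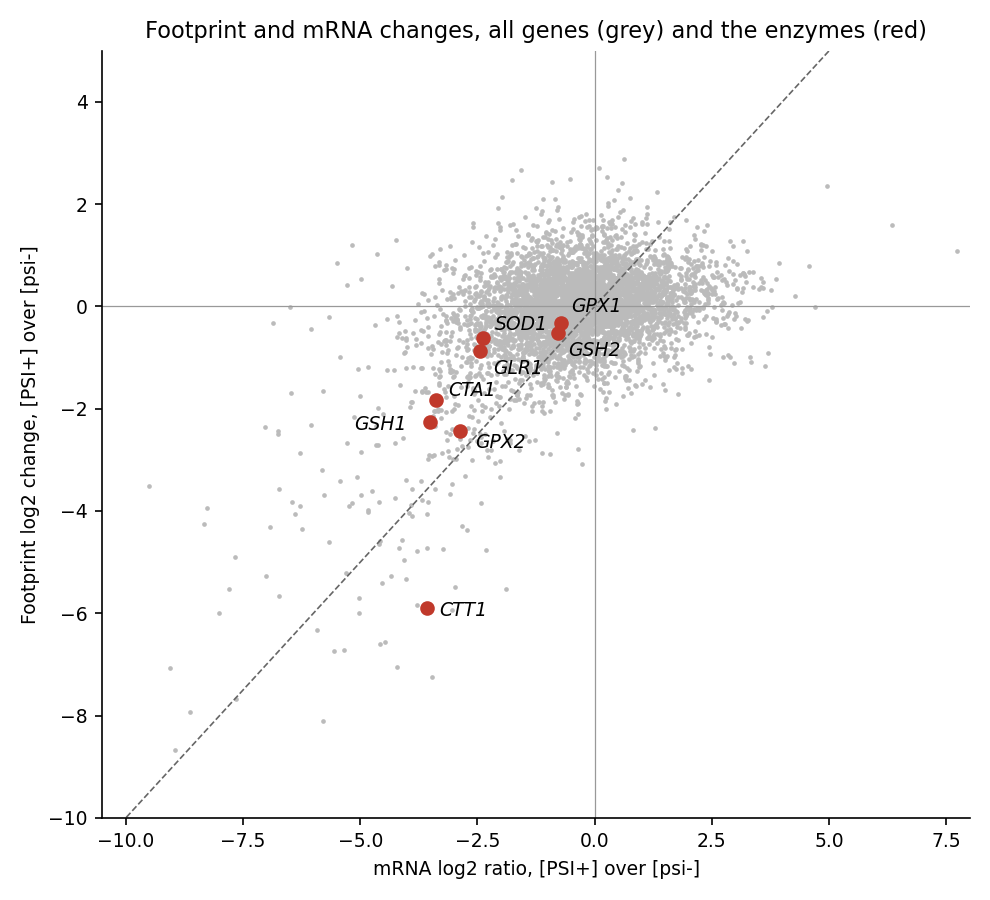
Footprint log2 change against mRNA log2 ratio, [PSI+] over [psi-] in YPD, for all genes (grey) and the 8 enzymes with reads (red). The dashed line marks equal log2 values on both axes. The all-gene medians were 0.02 for footprints and -0.42 for mRNA, so a typical gene lies above it. CTT1, at -5.89 in footprints and -3.59 in mRNA, lies below the line, while the other enzymes lie above it. GPX2, at -2.44 in footprints and -2.87 in mRNA, lies above it with a translational efficiency change of -0.002.

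The make-up of the ribosomes on these genes differed between the strains. Footprints on the 8 genes with reads summed to 1309 and 2002 CPM in the [PSI+] libraries, against 3549 and 3621 CPM in the [psi-] libraries. SOD1 took 61.3% (exact Clopper-Pearson 95% interval 59.6 to 63.0) and 73.6% (72.5 to 74.7) of that sum in [PSI+], against 45.0% (44.1 to 45.9) and 45.6% (44.8 to 46.5) in [psi-]. CTT1 took 0.765% (0.496 to 1.13) and 0.414% (0.273 to 0.602) in [PSI+], against 15.4% (14.8 to 16.1) and 15.0% (14.4 to 15.6) in [psi-]. In mRNA the sum over the same genes was 1066 CPM in [PSI+] and 6258 CPM in [psi-], and the SOD1 share was 14.7% (13.8 to 15.6) in [PSI+] and 13.1% (12.6 to 13.6) in [psi-]. These shares count reads and not reads per length, so each is read only between the strains and not between genes, and they were not tested.

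The authors' deposited table for YPD, which holds genes with an adjusted p under 0.1, lists 7 of the 10 genes. Its log2 fold is given as [psi-] over [PSI+], the opposite direction, so positive values mean lower in [PSI+]. The authors' deposited table gives 6.05 for CTT1, 2.61 for GPX2, 2.42 for GSH1, 1.92 for CTA1, 1.04 for GLR1, 0.78 for SOD1 and 0.68 for GSH2. SOD1 is the one of these whose adjusted p in the authors' deposited table, 0.0747, is above 0.05. The order of sizes is the same as in the footprint changes above, which come from the same libraries.

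Genes that work beside these enzymes were described with a list of 46, also chosen with earlier results of these data known. Of the 46, 44 could be tested in footprints. Of these, 20 fell and 2 rose in [PSI+], with a median log2 change of -0.43, against 18.9% that fell and 15.7% that rose over all genes tested. Of the 44, 6 reached the minimum count in both libraries of [psi-] but not in both of [PSI+], which favours a call as lower. They were GTT2, GTO1, GTO3, YHB1, SOL4 and CIN5, named after their values were seen. GTO3 and YHB1 reached it in 1 [PSI+] library. Without these 6 genes, 16 of 38 fell and 2 rose. The shares over all genes were not reduced in this way. In mRNA, 25 of 44 were lower by 2-fold or more and 2 were higher, against 32.0% lower and 13.5% higher over all genes. GEX1 and GEX2, glutathione exchangers of near-identical sequence, are listed at 0. In translational efficiency 8 of the 44 fell and 11 rose, near the shares of 20.5% and 17.9% over all genes. The number of these genes past the footprint threshold was 14 without [psi-] replicate 1 and 14 without [psi-] replicate 2, in place of 22.

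The counts by role are small and stand against the same shares over all genes, 18.9% that fell and 15.7% that rose. Of 7 genes grouped as glutathione transferases, a family that joins glutathione to other compounds, 4 fell and 0 rose. Without those that reached the minimum count through [psi-] only, 2 of 4 fell. Both counts include URE2, placed in this group by family and not by a known transferase activity, which did not pass (0.07, edgeR adjusted p = 0.648). Of 8 glutaredoxins, small proteins that use glutathione to reduce disulfides, 3 fell and 0 rose. Among the 5 genes of the pentose phosphate pathway that supply NADPH, 3 fell and 0 rose, or 2 of 4 without SOL4. Of the 4 genes for glyoxalases and formaldehyde detoxification, 3 fell and 0 rose. The 7 tested genes of glutathione breakdown and transport had 1 fall and 1 rise, with a median log2 change of -0.11.

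The largest falls among these related genes were those of SOL4, GTT2 and GND2. SOL4, which encodes a 6-phosphogluconolactonase-like protein of the NADPH-producing pathway, had 3 and 1 footprint reads in [PSI+], against 592 and 650 in [psi-] (log2 -7.05 ± 0.26 SE, edgeR adjusted p = 6.9e-05). GTT2, a glutathione transferase, had 0 and 6 reads in [PSI+], against 458 and 469 in [psi-] (-6.32 ± 0.27 SE, edgeR adjusted p = 1.19e-04). GND2, the minor isoenzyme of 6-phosphogluconate dehydrogenase, had 27 and 48 reads in [PSI+], against 1062 and 1072 in [psi-] (-4.58 ± 0.16 SE, edgeR adjusted p = 6.5e-05). At so few [PSI+] reads the fitted sizes for SOL4 and GTT2 depend on small added counts and on single libraries. SOL4 was -7.99 with the added 1 subtracted, -7.66 without [PSI+] replicate 1 and -6.48 without [PSI+] replicate 2. GTT2 was -7.02 with the added 1 subtracted, -5.86 without [PSI+] replicate 1 and -7.34 without [PSI+] replicate 2.

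Of the direct helpers of these enzymes, CCS1, the chaperone that loads copper into Sod1, fell. It had 317 and 328 footprint reads in [PSI+], against 1176 and 1197 in [psi-], a log2 change of -1.66 ± 0.16 (SE; edgeR adjusted p = 0.00205). MTM1, a mitochondrial carrier needed for active Sod2, had 74 and 192 reads in [PSI+] and 140 and 158 in [psi-], and its value of -0.01 ± 0.29 did not pass the test (edgeR adjusted p = 0.990). It passed in opposite directions without [PSI+] replicate 1 (0.35, edgeR adjusted p = 0.0221) and without [PSI+] replicate 2 (-0.53, edgeR adjusted p = 0.00949). HYR1, which encodes the remaining glutathione peroxidase homologue, known as the peroxide sensor upstream of Yap1, fell by 0.63 (SE 0.15, edgeR adjusted p = 0.0263). Without a [psi-] library HYR1 did not pass (edgeR adjusted p = 0.224 without [psi-] replicate 1 and 0.200 without [psi-] replicate 2), nor with upper-quartile scaling (-0.48, edgeR adjusted p = 0.0549).

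Among the regulators, YAP1, the transcription factor of the peroxide response, had 255 and 371 footprint reads in [PSI+], against 500 and 517 in [psi-], and fell by 0.51 on the log2 scale (SE 0.11, edgeR adjusted p = 0.0210). MSN4 was 1 of the 2 related genes whose footprints rose, with 42 and 70 reads in [PSI+], against 25 and 24 in [psi-] (1.36 ± 0.24 SE, edgeR adjusted p = 0.0107). The other was DUG1, a peptidase of glutathione breakdown, with 357 and 536 reads in [PSI+], against 308 and 325 in [psi-] (0.68 ± 0.12 SE, edgeR adjusted p = 0.0104). The calls for YAP1, MSN4 and DUG1 were each lost when a [psi-] library was left out. The edgeR adjusted p without [psi-] replicate 1 was 0.258 for YAP1, 0.0910 for MSN4 and 0.181 for DUG1, and without [psi-] replicate 2 it was 0.263 for YAP1, 0.111 for MSN4 and 0.165 for DUG1. DUG1 also did not pass with DESeq2 (0.50, adjusted p = 0.115). MSN2 stood at 0.01 ± 0.19 (edgeR adjusted p = 0.969) and changed sign with the setting. SKN7, which acts with Yap1, stood at 0.52 ± 0.21 (edgeR adjusted p = 0.103), and passed with upper-quartile scaling (0.67, edgeR adjusted p = 0.0459), without [PSI+] replicate 1 (0.72) and without [PSI+] replicate 2 (0.28). Footprints on a regulator are not a measure of its activity.

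**Figure D4:**
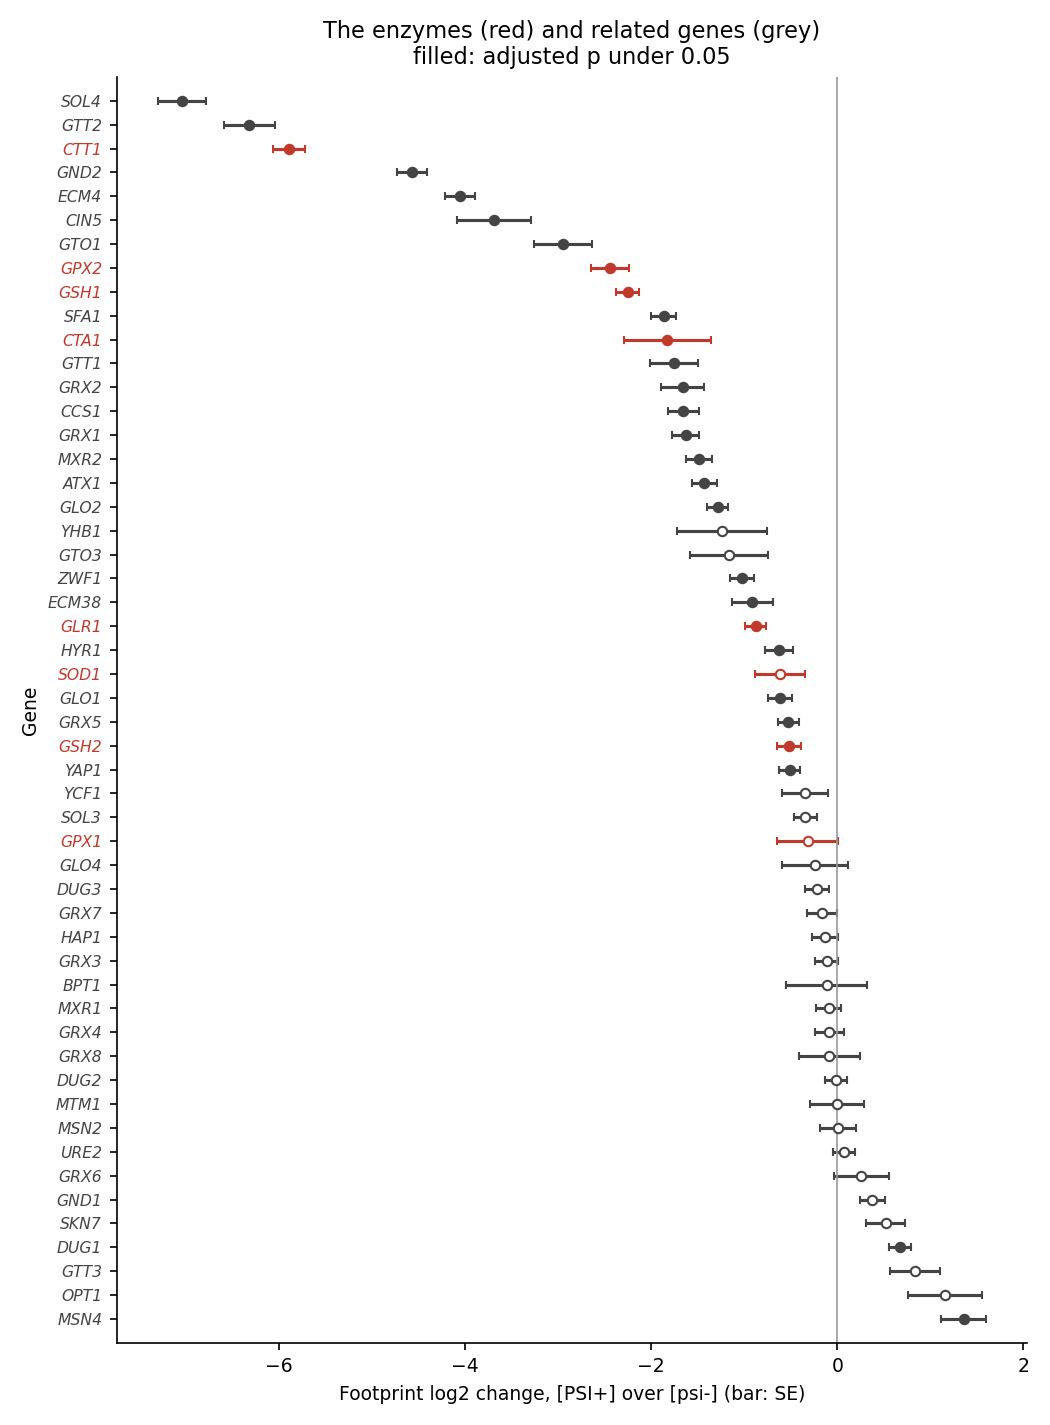
Footprint log2 change, [PSI+] over [psi-] in YPD, with its SE, for the enzymes (red) and the 44 related genes tested (grey), sorted by size. Filled points have an edgeR adjusted p under 0.05. SOL4, GTT2 and CTT1 are at the top with changes of -7.05, -6.32 and -5.89, and MSN4 is at the bottom with 1.36.

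The genes with the pattern nearest to each of the 3 most changed enzymes were found over the 6 YPD libraries, by the Euclidean distance of mean-centred log2(CPM + 1) among 4599 genes with a mean of 50 or more reads. For CTT1 these were ALD3 (distance 1.24), an aldehyde dehydrogenase gene with 0 footprint reads over the [PSI+] libraries and 733 over the [psi-] ones, EGO4 (1.36) with 23 in [PSI+] and 1901 in [psi-], and HSP31 (1.43) with 174 in [PSI+] and 7525 in [psi-]. For GPX2 they were PIG2 (0.443), YJR096W (0.606) and MET28 (0.658), and for GSH1 they were YHK8 (0.349), TOS8 (0.552) and AIM17 (0.747). The distances for CTT1 were larger than those for GPX2 and GSH1. The 6 libraries hold only 2 strains and 2 library kinds, so a short distance says that a gene shares these differences and no more.

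In YNB the question was whether SUP35-Cter, which carries the termination activity of Sup35 and lacks its prion domain, changes footprints in [PSI+] cells. The authors' deposited table gives 1 mean normalized count per condition and an adjusted p, so no spread between libraries can be shown, and the depth per library is unknown. SUP35 itself had a mean of 20432 with SUP35-Cter and 6207 in [PSI+] in the authors' deposited table (fold 3.29, adjusted p = 0.00529). None of the 9 antioxidant genes in that table passed, with an adjusted p of 1 for each and 0 of 9 under an unadjusted p of 0.05, against 1.32% of its 6190 features with an adjusted p under 0.05. SOD2 has no row in it.

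The individual folds in the authors' deposited table were small. The catalases stood at 7109 with SUP35-Cter and 9560 in [PSI+] for CTT1 (fold 0.744, unadjusted p = 0.816) and at 852 with SUP35-Cter and 1020 in [PSI+] for CTA1 (fold 0.835, unadjusted p = 0.799). SOD1 stood at 79094 with SUP35-Cter and 121974 in [PSI+] (fold 0.648, unadjusted p = 0.337), and CCP1, with few reads, at 82.6 with SUP35-Cter and 50.01 in [PSI+] (fold 1.65, unadjusted p = 0.537). In the authors' deposited table the synthesis genes had folds of 1.10 for GSH1 and 0.743 for GSH2, GLR1 had 0.934, and the peroxidases had 1.11 for GPX1 and 0.803 for GPX2. Of the 9 genes, 6 had a lower and 3 a higher mean with SUP35-Cter. The median log2 ratio of the 9 was -0.26, against -0.02 over all features. Of the 44 related genes in the authors' deposited table, 1 passed: OPT1, an oligopeptide and glutathione transporter, with means of 2543 with SUP35-Cter and 978 in [PSI+] (fold 2.60, adjusted p = 0.00105). It was singled out after its values were seen.

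**Figure D5:**
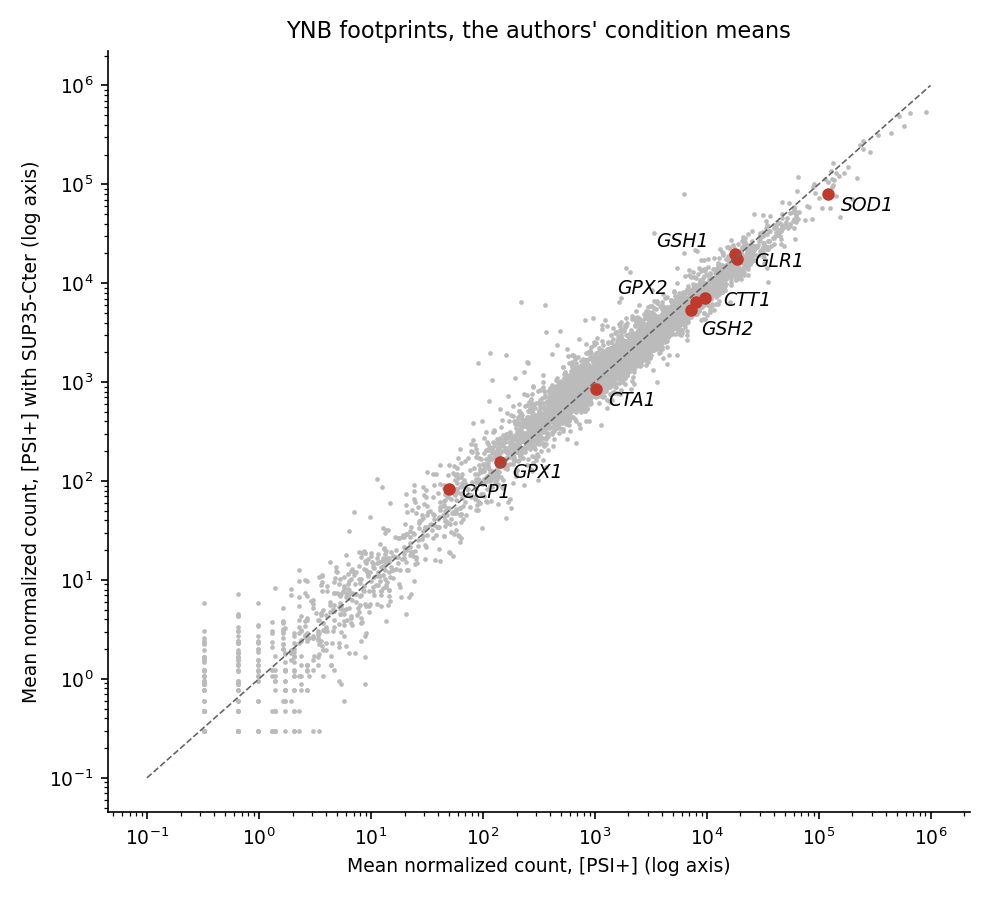
The authors' mean normalized footprint counts in YNB (log axes), [PSI+] with SUP35-Cter against [PSI+], for all features with a mean above 0 in both conditions (grey) and the 9 antioxidant genes in the table (red). The dashed line marks equal means. SOD1, at 79094 with SUP35-Cter and 121974 in [PSI+], and the other enzymes lie within the cloud of all genes.

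Levels between these genes can be set side by side in YNB per kilobase of coding length, from the authors' means and the R64 coding lengths. SOD1 came first by far, with 170095 normalized counts per kb with SUP35-Cter and 262311 in [PSI+]. Next came GPX2 (13145 with SUP35-Cter and 16366 in [PSI+]), GLR1 (12105 with SUP35-Cter and 12964 in [PSI+]) and GSH1 (9748 with SUP35-Cter and 8842 in [PSI+]). CTT1 (4209 with SUP35-Cter and 5660 in [PSI+]) and GSH2 (3615 with SUP35-Cter and 4862 in [PSI+]) were below these. The lowest were CTA1 (551 with SUP35-Cter and 659 in [PSI+]), GPX1 (312 with SUP35-Cter and 281 in [PSI+]) and CCP1 (76.1 with SUP35-Cter and 46.1 in [PSI+]). With no spread per library, neighbours in this order cannot be told apart by a test.

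The footprint share of each gene can also be placed beside its YPD values, as normalized counts or reads scaled to 1e6 over the table or the libraries of a strain. CTT1 took 287 units of this scale with SUP35-Cter and 338 in [PSI+] in YNB, beside 9.04 in [PSI+] and 545 in [psi-] in YPD. GSH1 took 800.2 with SUP35-Cter and 636 in [PSI+] in YNB, beside 84.3 in [PSI+] and 376 in [psi-] in YPD. GPX2 took 259 with SUP35-Cter and 283 in [PSI+] in YNB, beside 101 in [PSI+] and 528 in [psi-] in YPD. The media, the mapping and the normalization differ between these experiments, so the values are given without a comparison. The 10 samples hold no [psi-] cells in YNB.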

How the data were processed

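Footprints and mRNA of 74D694 yeast were sequenced in 10 samples of 6 groups, assigned from the sample titles. The members and gene lists were chosen with earlier results of these data known. For YPD the authors deposited read counts per gene; the submitters' processing notes name Bowtie 0.12.7, HTSeq 0.5.3p3, DESeq 1.6.1 and sacCer2. For YNB they name cutadapt 1.2.1, Bowtie2, HTSeq 0.5.3p3, DESeq 1.6.1 and sacCer3. Multi-mapped reads and the use of strand in counting are not given in the sources used here. 1 had been added to every deposited count. Reads and CPM in the text leave it out, and the fits keep it. In the fits each [PSI+] footprint library, summed from 2 runs, thus carries 2 added reads and every other library 1. The 4 [PSI+] footprint columns were 2 libraries with 2 runs each: over genes with 20 or more reads, the chi-square of a pair divided by its degrees of freedom was 1.01 and 0.998 for runs that agree within sampling noise and 19.4 or more for other pairings. Such runs were summed, and their replicate numbers are only names. The [psi-] pair differed by slightly more than counting noise (1.27). The authors' tables hold p-values, a log2 or log10 fold, a fold as a ratio and a base mean signal, which is the count after the authors' size-factor scaling, per the file headers; means in YNB are per condition, so the planned count test there was not run.

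Footprint counts were tested with edgeR 4.0.16 (its quasi-likelihood F-test after TMM scaling and filterByExpr at its default minimum of 10 counts, with a Benjamini-Hochberg threshold of 0.05), tested on simulated data first, with DESeq2 1.42.0 as an alternative. mRNA ratios used CPM with exact counting intervals and 0.5 reads added before a log2. Names and positions came from RefSeq R64, which matched 5908 of 6608 and 5677 of 6190 features; YPD reads were mapped to another build, so their counts carry no coordinates here, and YPD levels are not ranked between genes. None of the enzyme genes overlaps another R64 gene. The rule for named genes took all members, the 3 largest falls and rises past the threshold among related genes, and 7 direct helpers and regulators whatever their values. Other scalings, filters, run handling and left-out libraries are in the closing section.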

Additional observations from a re-analysis of the deposited data

How the results depend on the processing

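The footprint calls of CTT1, GPX2 and GSH1 held under all alternatives run. The number of enzyme genes past the footprint threshold, 6, was 3 to 7 over the fits that left out 1 library and 3 with the [psi-] pair summed, and that of related genes, 22, was 14 to 33 and 14. Over all genes the 1779 calls became 492 to 3384 with 1 library left out and 533 with the [psi-] pair summed; the 973 lower ones became 382 to 1719 and 412, and the 806 higher ones 110 to 1665 and 121. Higher calls numbered 1219 with upper-quartile factors, 485 with no filter and 311 with DESeq2, and higher calls were 45.3% of all calls with TMM, 60.5% with upper-quartile factors, 27.9% with no filter and 23.3% with DESeq2. Translational efficiency calls among the enzyme genes, 3, became 1 to 6 with 1 library left out; over all genes 2087 became 985 to 3373, with 549 to 1799 lower (1113 in the fit reported) and 428 to 1574 higher (974). A fit without a library leaves a lone sample that is assumed to vary like the other strain's pair. The median mRNA log2 ratio of the enzyme genes, -2.65, was -2.23 relative to the all-gene median.

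Only values that had not passed the test changed sign. The MTM1 footprint change was 0.14 with upper-quartile factors, 0.0093 with each run its own replicate, and -0.53 to 0.35 with 1 library left out. MSN2 was -0.15 with no filter, -0.17 with DESeq2, and -0.19 to 0.18 with 1 library left out, with -0.10 without [psi-] replicate 1. Translational efficiency of GSH2 was 0.11 with upper-quartile factors. That of GPX1 was 0.10 with RLE factors, 0.25 with upper-quartile factors, 0.044 with each run its own replicate, -0.30 without [PSI+] replicate 2, and 0.15 and 0.19 without [PSI+] replicate 1 and [psi-] replicate 1. That of GPX2 was 0.11 with RLE factors, 0.27 with upper-quartile factors, 0.026 with 1 subtracted, 0.044 with each run its own replicate, -0.31 without [PSI+] replicate 1, and 0.24 and 0.05 without [PSI+] replicate 2 and [psi-] replicate 2. MTM1 was 0.05 without [psi-] replicate 2. Of the single-gene values under an alternative, 235 counted as unchanged, 29 lost the threshold, 14 gained it, 7 moved and 20 changed sign. Unchanged means the same direction and side of the threshold for tested values. For mRNA ratios, which have no threshold, it means a value inside the counting interval. The 7 that moved were mRNA ratios outside that interval. The cause was not tested. No paired analysis was possible because the [PSI+] footprint columns carry no replicate number of the labels. Depth limits CTA1 and GPX1 most, and the single mRNA library per strain limits all translational efficiency values.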
